A study of Mus musculus with 68 samples.

Results

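WSB is an inbred strain derived from wild house mice, and its unstressed fibroblasts carried 887 autosomal genes whose level lay outside that of every other founder strain. The rule took an autosomal gene when both WSB control libraries lay above, or both lay below, all 16 control libraries of the 7 other founder strains. Of 12571 autosomal genes listed, 428 were higher in WSB (3.4%) and 459 were lower (3.65%). The values that chose these genes were the control values themselves. Their control differences are therefore a description and carry no test, and the tests use the tunicamycin-treated founder libraries and the F1 libraries, which the rule did not use.

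The libraries were made from mouse embryonic fibroblasts (MEFs), connective tissue cells grown from embryos. The founder strains were 129, AJ, B6, CAST, NOD, NZO, PWK and WSB, and the F1 crosses x129, xCAST, xNOD, xNZO and xWSB each had a B6 mother. Control cells received DMSO, the solvent, at 0.1%, and treated cells received tunicamycin (TM) at 2 ug/ml, both for 4 h. TM blocks N-linked glycosylation and thereby stresses the endoplasmic reticulum. The sample labels name no transgene or deletion for any group. WSB had 2 control and 3 TM libraries, and xWSB had 3 of each. The other founder strains had 16 control and 19 TM libraries, and the other 4 crosses had 11 of each. The cells of each genotype came from female embryos of 1 litter, pooled, and the replicates were wells of that pool. A difference of WSB from the other strains therefore cannot be told apart from a difference of its pool, and p-values measure the spread between wells. With the strain as the unit, an exact permutation test over 8 strains cannot go below p = 0.125.

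Basal expression differs between inbred strains because of variants near a gene, variants in regulators elsewhere, and differences in gene copy number. WSB, CAST and PWK are wild-derived and represent different subspecies of the house mouse, whereas the other founders are classical laboratory strains that share much of their ancestry. An F1 animal holds 1 allele from each parent, so an allele that acts only on its own copy is present in the cross at reduced dosage.

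Read depth bears on the rule. The WSB controls held 8197697 and 7091923 reads on genes, fewer than any of the other founder controls (9651004 to 21530282). The xWSB controls held 8382785, 12217603 and 6442976, against 10195690 to 29528457 in the controls of the other crosses. All 15 fibroblast marker genes checked were listed, and their summed level in the WSB controls (47140 to 48460) lay within the range of the other controls (21680 to 56960). Several lists set WSB control replicate 2 apart. The 7 adipocyte markers summed to 1070 in that library against 38.2 in WSB control replicate 3 and 20.5 to 88.6 elsewhere. The 12 complement and acute phase genes summed to 741 and 16.2 in the same libraries, against 15.5 to 86.3 elsewhere. The 6 endothelial markers summed to 25.3 and 3.68 against 4.20 to 18.6, and the 26 cholesterol and fatty acid genes to 4910 and 3816 against 3059 to 4686. The 13 myeloid markers (51.1 and 8.82) and the 6 epithelial markers (107 and 37.9) also differed between both WSB controls, where replicate 2 lay within the range of the others (18.3 to 76.0 and 33.7 to 134). No gene of these lists other than Fdft1 was a member, and the part of these differences in other genes was not tested. AJ control replicate 1 also stood apart, with 39 cytosolic ribosomal protein genes summing to 47180 against 25160 to 34580 in the other 15 non-WSB controls.

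The same rule applied to each strain in turn gave 1506 genes for CAST (12%) and 1424 for PWK (11.3%). It gave 350 for NOD, 457 for AJ, 473 for NZO, 605 for B6 and 725 for 129. WSB, at 7.06%, thus lay between the other wild-derived strains and the classical strains, but AJ and PWK had 3 controls and the rest had 2, so the bar was not equal. Among genes with a mean of at least 10 over the 18 controls, 289 were higher and 329 lower in WSB. Of the WSB members, 879 were protein coding by annotation.

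**Figure D1:**
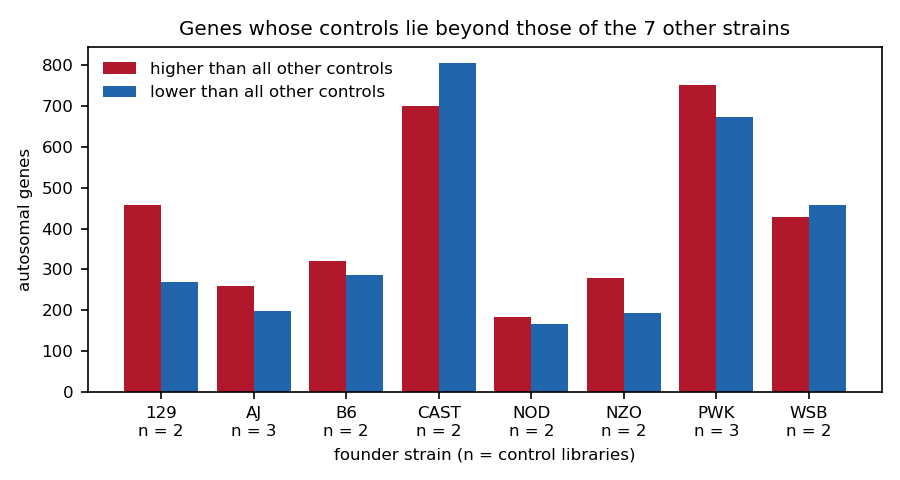
Number of autosomal genes (vertical axis) for which all controls of a strain lay above (red) or below (blue) all controls of the 7 other founder strains; n is the number of control libraries. WSB had 428 higher and 459 lower genes, fewer in all than CAST and PWK and more in all than each of the 5 classical strains, of which 129 had 457 higher genes.

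Most members lay close to the rule's border. The gap between the nearest WSB control and the nearest other control was at least 1.5-fold for 59 higher and 43 lower members, and at least 2-fold for 28 and 13. Just inside the rule were Sfxn3, at 121.5 and 129.8 in WSB against a highest other control of 121.4, and Drg2, whose higher WSB control and lowest other control were both 65.9. Just outside was Sec31a, a coat protein of secretory vesicles, at 444.6 and 478.1 against 444.8. The nearest other control belonged to AJ for 183 members, more than for any other strain, and to 129 for 90, the fewest. AJ had 3 controls and 129 had 2, so these counts do not rank strains by likeness to WSB. Without AJ control replicate 1, which stood apart, there were 488 higher and 524 lower members.

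Cwc22 was among the members with the widest gap upward. Cwc22 is a splicing factor that places the exon junction complex on spliced mRNA, and it is known to be present in extra copies in WSB. It lies at chr2:77881159-77946375 (GRCm38, minus strand). Its value was 682 and 851 in the WSB controls, against 25.9 to 66.9 (median 31.1) in the 16 others, of which CAST control replicate 1 was highest. Values are reads on a gene relative to the scaled library size, not divided by gene length, so they compare libraries and not genes. The TM libraries of WSB stood at 920, 871 and 914 against 42.2 to 90.3. On log2(value + 0.1), the scale of all differences given here, the TM difference was 4.15 ± 0.08 (SE; limma adjusted p = 6.2e-18). In the xWSB controls Cwc22 was at 301, 307 and 379 against 20.3 to 32.9 in the other crosses, a difference of 3.64 ± 0.08 (limma adjusted p = 2.6e-11). The groups did not overlap under TM or in the xWSB controls, and in the founder controls the rule required this. Founder and F1 values were normalized separately, so their levels are not compared. Reads from near-identical copies cannot be assigned to one of them, so the value stands for the copies together.

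The stretch before the Cwc22 start (RefSeq, GRCm38.p6, chr2:77946376-77946606, minus strand) is shown because of the size of this gene's difference. It holds none of the 4 motifs searched, which were the TATA box with the letters TATAAA, the box named for its letters CCAAT, the AP-1 site TGANTCA and the E2F site TTTCGCGC or TTTGGCGC, each on both strands. No capitals therefore appear.
Cwc22: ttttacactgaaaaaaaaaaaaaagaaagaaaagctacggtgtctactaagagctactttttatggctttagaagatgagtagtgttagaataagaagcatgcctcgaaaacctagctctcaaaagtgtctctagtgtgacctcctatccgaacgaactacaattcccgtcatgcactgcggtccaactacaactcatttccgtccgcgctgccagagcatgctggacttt

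Of 22 splicing and exon junction genes, 1 was a higher member (Cwc22, 4.55% against 3.4% over all genes) and 4 were lower (18.2% against 3.65%). In the controls 1 of the 22, Magohb, was called lower (4.55%, background 3.87%), which is a description, as the rule used that contrast. The lower members were Magoh, Magohb and Rbm8a, which belong to the core of the complex, and Sf3b2, a subunit of the U2 snRNP. Magohb was at 3.35 and 4.41 in WSB against 6.35 to 13.2 in the others, a difference of -1.10 ± 0.26. Magoh was at 26.2 and 27.2 against 28.6 to 54.1, and Rbm8a, at the border of the rule, was at 44.3 and 46.0 against 46.1 to 143. The other core genes, Eif4a3 and Casc3, were no members and differed by -0.11 ± 0.15 and 0.05 ± 0.08. In the TM libraries Magohb, Magoh and Rbm8a differed by -0.27 ± 0.18, 0.11 ± 0.15 and 0.25 ± 0.23, and none passed the test (limma adjusted p = 0.28, 0.63 and 0.45). They differed by -0.10 ± 0.19, 0.16 ± 0.16 and 0.02 ± 0.18 in the xWSB controls, again without passing.

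A pair of ribosomal protein pseudogenes stood far higher in WSB than elsewhere. Rpl12-ps1 (chr1:36957930-36958427) was at 40.9 and 40.7 in the WSB controls against 0 to 2.12. Rps26-ps1 (chr8:107439131-107439579, inside Wwp2) was at 73.6 and 39.9 against 0.207 to 4.46. Rpl12-ps1 was at 51.5, 22.2 and 19.7 in the xWSB controls against 0.08 to 0.475 (difference 6.44 ± 0.37, limma adjusted p = 5.2e-08). The xWSB controls held Rps26-ps1 at 65.5, 22.7 and 21.8 against 0.0579 to 2.68 (6.39 ± 0.60, limma adjusted p = 3.7e-06). Both pseudogenes were also called in WSB and xWSB under TM. They are near-copies of Rpl12 and Rps26, whose reads the alignment could split, so these values are uncertain as expression of the pseudogene. The pseudogene took 6.21% and 6.98% of the summed Rpl12 pair in the WSB controls and at most 0.237% elsewhere. Its share of the Rps26 pair was 15.6% and 10.7% in WSB and at most 1.06% elsewhere. Rpl12 itself was a lower member near the border of the rule, at 619 and 543 against 628 to 1408. Summed with its pseudogene, Rpl12 overlapped the others, at 660 and 584 against 628 in PWK control replicate 3. Under TM Rpl12 differed by -0.06 ± 0.19 and was not called (limma adjusted p = 0.83). Rps26 overlapped the other strains at 397 and 334 against 266 to 502. The plot of the pseudogene share by library shows the WSB controls apart from all others.

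**Figure D2:**
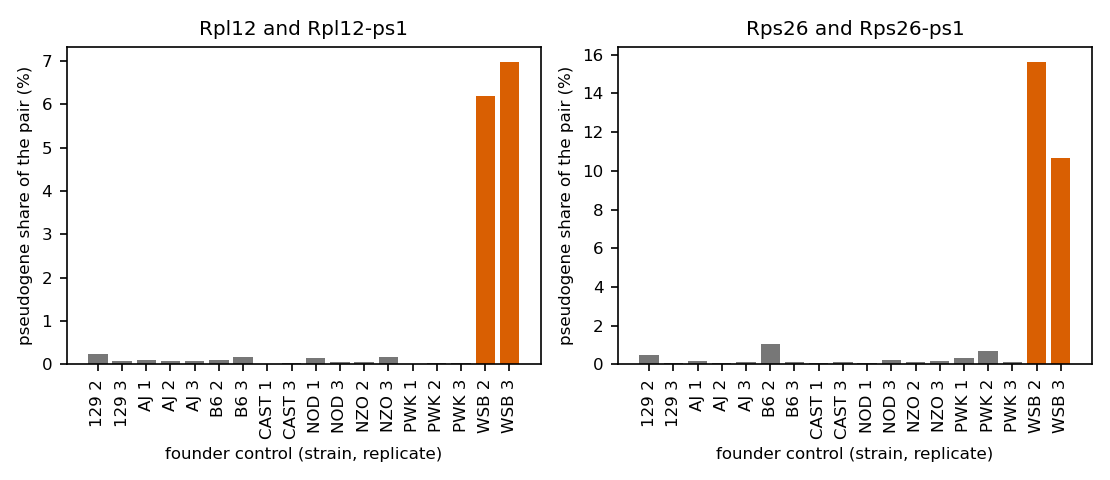
Share of the pseudogene in the summed value of gene and pseudogene (vertical axis, percent) in each of the 18 founder controls (horizontal axis); WSB is orange. For both pairs the WSB controls, at 6.21% to 15.6%, stand above all others, which reach 1.06% at most.

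The other members with the widest gaps upward included transporters and signalling genes. Slc6a5, the neuronal glycine transporter, was at 14.02 and 17.5 in the WSB controls and at 0 to 0.315 in the others. Its TM libraries stood at 23.4, 26.0 and 18.7 against 0 to 0.658 (difference 6.63 ± 0.53, limma adjusted p = 3.6e-08). The xWSB controls had 1.66, 1.24 and 0.878 against 0 to 0.27 (2.68 ± 0.41, limma adjusted p = 0.00028). Neither the TM libraries nor the xWSB controls overlapped the others, while in the founder controls the rule fixed this.

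Rgs20, a regulator that shortens G protein signalling, was at 51.4 and 60.6 in the WSB controls against 0.618 to 7.88. The difference held in TM (5.32 ± 0.18, limma adjusted p = 1.9e-13) and in the xWSB controls, at 28.1, 33.2 and 33.4 against 0.637 to 3.35 (4.61 ± 0.33, limma adjusted p = 2.9e-07). Rgs20 overlaps Atp6v1h, and the counting was not stated to use strand. Tmc7, a transmembrane channel-like protein, was at 82.0 and 98.2 against 2.69 to 27.5, and at 27.4, 42.6 and 51.9 against 3.03 to 13.97 in the xWSB controls (2.82 ± 0.18, limma adjusted p = 1.1e-07). Il1f9, an interleukin 1 family cytokine, was at 29.8 and 21.03 against 0.0518 to 2.98, and differed by 3.71 ± 0.26 in the xWSB controls (limma adjusted p = 2.4e-07). Aldh1a7, an aldehyde dehydrogenase, was at 21.3 and 23.5 against 0.518 to 5.74. In the xWSB controls Aldh1a7 overlapped the other crosses, at 8.19, 6.26 and 6.02 against 1.19 to 6.32, and was called at 1.24 ± 0.27 (limma adjusted p = 0.0037). That call was lost when any 1 of the 3 xWSB controls was left out.

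Cldn15, a tight junction claudin, and Syngr1, a synaptic vesicle protein, were higher in WSB but not called in the xWSB controls. Cldn15 was at 8.07 and 7.79 in the WSB controls against 0.718 to 2.69, and differed by 0.52 ± 0.26 in the xWSB controls (limma adjusted p = 0.17). Syngr1 was at 4.343 and 5 against 0 to 1.64 and differed by 1.91 ± 0.50 in the xWSB controls (limma adjusted p = 0.012). Under TM the xWSB difference of Syngr1 was of like size, 1.89 ± 0.32, and was called (limma adjusted p = 0.00038).

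The widest gaps downward included adhesion and surface proteins. Pdpn encodes podoplanin, a mucin-like surface glycoprotein of fibroblasts and lymphatic endothelium (chr4:143267431-143299564). It was at 6.70 and 7.79 in the WSB controls against 18.3 to 96.1 (median 70.7), and at 5.33, 6.05 and 7.03 against 18.5 to 94.2 in TM (difference -2.96 ± 0.10, limma adjusted p = 2.1e-13). The xWSB controls were not low. They stood at 79.4, 71.4 and 84.1 against 19.6 to 83.4 in the other crosses (0.76 ± 0.09, limma adjusted p = 3.5e-05).

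Itga3, an integrin subunit that binds laminin, was at 22.8 and 26.8 in the WSB controls against 54.7 to 204. It was lower in all other comparisons too: in TM at 11.9, 10.4 and 12.7 against 30.3 to 148 (-2.71 ± 0.12, limma adjusted p = 9.9e-12), and in the xWSB controls at 28.5, 29.0 and 24.3 against 40.0 to 189 (-1.55 ± 0.09, limma adjusted p = 4.8e-08). No group overlapped. Tbc1d2, a Rab GTPase-activating protein, was at 17.2 and 15.6 against 34.7 to 71.1, and differed by -1.60 ± 0.12 in the xWSB controls (limma adjusted p = 5e-07). Cacnb2, a calcium channel subunit, differed by -1.94 ± 0.17 in TM (limma adjusted p = 1.3e-07) and by -1.45 ± 0.36 in the xWSB controls (limma adjusted p = 0.0078), a call that edgeR did not make and that was lost without any 1 of the 3 xWSB controls (-1.12 to -1.70).

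Cyp4f16, a fatty acid hydroxylase, was at 1.74 and 0.147 in the WSB controls against 4.18 to 35.7. The xWSB controls had 13.8, 10.4 and 10.2 against 12.6 to 25.1, a difference of -0.65 ± 0.11 (limma adjusted p = 0.0005) that was not called without xWSB control replicate 3 (-0.58). The founder TM difference was -5.04 ± 0.18 (limma adjusted p = 2.7e-13). Raet1e, a ligand of the activating receptor NKG2D, had no read in either WSB control and 0.252 to 10.3 in the others. Against a floor of 3 reads in each WSB library, the mean of the other strains was at least 10.2-fold higher. NZO was also low, with a control mean of 0.491, and the lowest other control, of NZO, lay below that floor (0.372 and 0.441). Under TM the WSB libraries overlapped the others, at 0.101, 0 and 0 against 0.0912 to 11.7, and were called lower (-4.41 ± 0.36, limma adjusted p = 4.3e-08). The xWSB controls overlapped the other crosses and were not called (-0.49 ± 0.21, limma adjusted p = 0.10). Under TM xWSB was called lower (-1.45 ± 0.35, limma adjusted p = 0.0058). Raet1e overlaps H60b and Raet1d, and members of that family share sequence, so its value is uncertain.

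The remaining members with wide gaps downward had low values. Samd5, a sterile alpha motif protein, was at 0.993 and 0.882 in the WSB controls against 2.69 to 21.8, and was called lower in the xWSB controls (-1.52 ± 0.21, limma adjusted p = 0.00011). Stx11, a syntaxin of membrane fusion, was at 1.12 and 0.882 against 2.63 to 14.2, and stayed below all others under TM at 4.52, 3.08 and 2.85 against 9.11 to 37.7 (-2.14 ± 0.13, limma adjusted p = 7.9e-10). Sh2d5, an SH2 domain protein, was at 0.744 and 0.735 against 1.76 to 4.67, and differed by -0.37 ± 0.30 in the xWSB controls (limma adjusted p = 0.41). D030025P21Rik was at 0.62 and 1.03 against 3.54 to 10.2, and it overlaps Ltbp2, which was also a lower member.

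**Figure D3:**
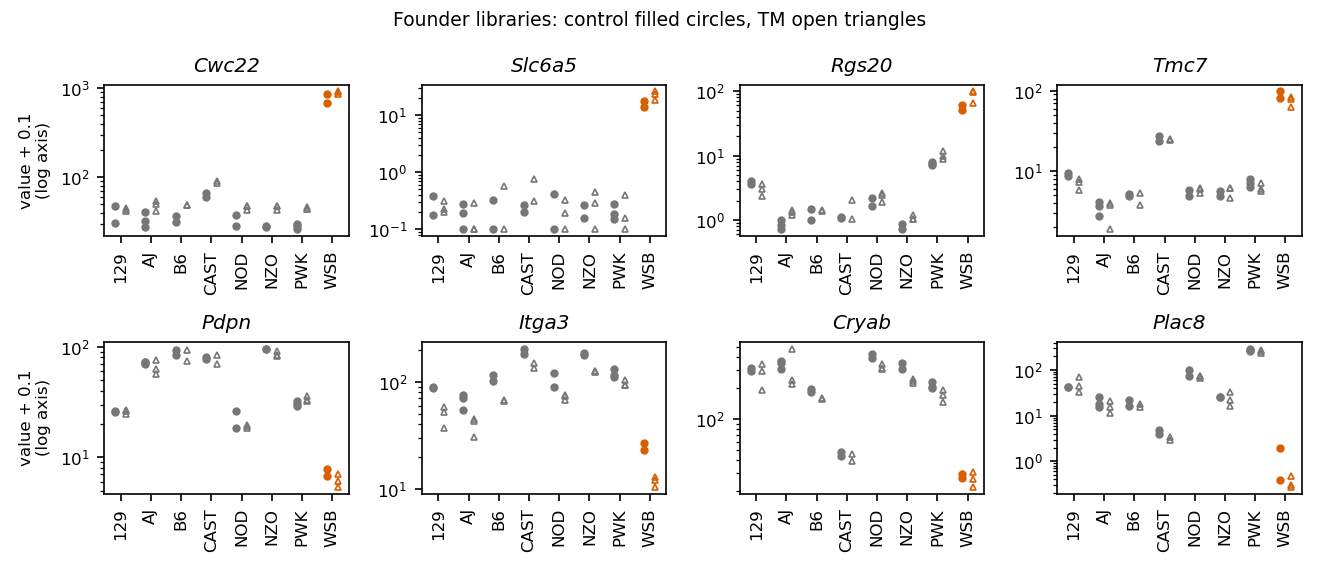
Value plus 0.1 (vertical log axis) in every founder library for 4 members higher and 4 lower in WSB; filled circles are controls, open triangles TM, and WSB is orange. In Cwc22 the WSB libraries lie at 682 to 920 and all others at 25.9 to 90.3, and in Pdpn they lie at 5.33 to 7.79 and all others above 18.

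Most members stood on the same side in the TM libraries of the founder strains (353 of 428 higher and 369 of 459 lower), which the rule did not use but which came from the same pools. Of the 428 higher members, 162 were called higher (37.9%, against 4.26% of all 12551 genes tested), and of the 459 lower members 149 were called lower (32.5%, against 6.21%). A call means an adjusted p under 0.01 and at least a 1.5-fold difference in limma. No member was called in the opposite direction. The median difference was 0.48 among higher members and -0.38 among lower members, against 0.02 over all genes tested. In 111 higher members (25.9%, background 1.55%) and 89 lower members (19.4%, background 1.52%) all 3 WSB TM libraries again lay beyond all 19 others. In the controls the same fit called 210 higher and 223 lower members, where the background was 3.32% and 3.87%; the rule used that contrast.

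Fewer members were called in xWSB, whose cells came from other embryos. Of 420 higher members listed in the F1 tables, 82 were called higher in the xWSB controls (19.5%, background 5.44%) and 21 were called lower (5%, background 8.57%). Of 448 lower members, 114 were called lower (25.4%, background 8.57%) and 17 higher (3.79%, background 5.44%). Under TM, 90 higher members (21.4%, background 7.21%) and 124 lower members (27.7%, background 9.59%) were called in the same direction, and 25 (5.95%, background 9.59%) and 18 (4.02%, background 7.21%) in the opposite one. The median difference in the xWSB controls was 0.18 among higher and -0.24 among lower members, against -0.01 over all genes tested. All 3 xWSB controls lay beyond the other crosses in 80 higher members (19%, background 5.77%) and 123 lower members (27.5%, background 8.19%), and the xWSB TM libraries did so in 80 (19%, background 6.99%) and 118 (26.3%, background 7.29%). For calls shared by founder TM, F1 control and F1 TM, no share over all genes was taken. Altogether 51 higher and 39 lower members were called in the same direction in founder TM, F1 control and F1 TM. Among these were Cwc22, Rgs20, Tmc7, Slc6a5, Il1f9 and Adamts5 upward and Itga3, Tbc1d2, Samd5, Col18a1, Mest and the replication gene Orc1 downward. Of all 12106 genes tested in both F1 fits, 6.83% were called lower in both. The 97 lower members called lower in both held genes of replication and mitosis, such as Mcm2, Mcm3, Mcm5, Mcm7, Ccnb2 and Aurkb. Of 30 cell cycle genes listed, 29 were called lower in xWSB, so these calls are not particular to members. The founder contrast sets WSB against 7 strains and the F1 contrast sets xWSB against 4 crosses, so the sizes are not directly comparable.

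**Figure D4:**
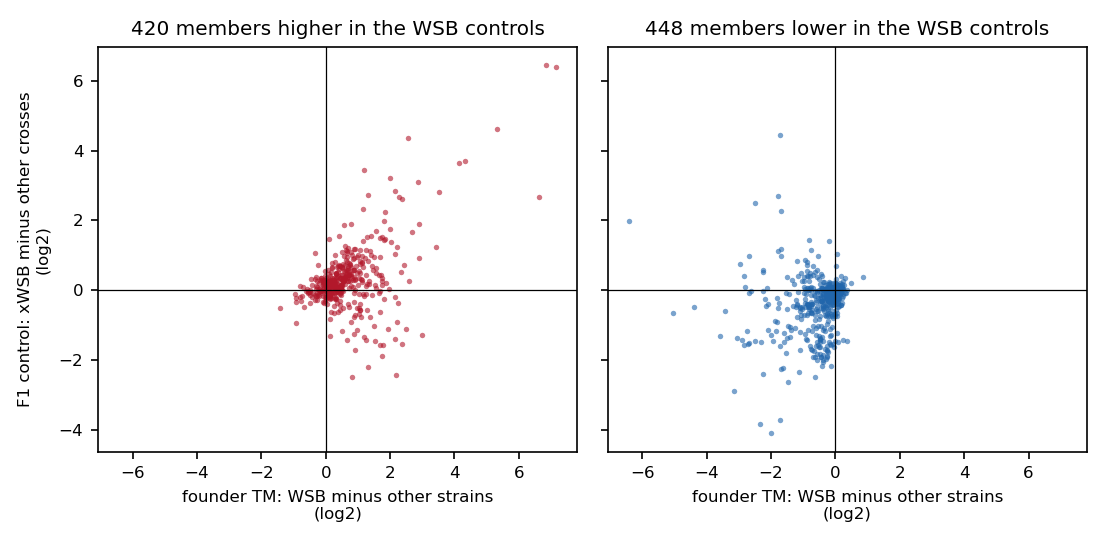
Difference of WSB from the other founder strains under TM (horizontal axis, log2) and of xWSB from the other crosses in control cells (vertical axis, log2) for each member listed in both sets; neither comparison was used by the rule. Higher members (red, 420) had median differences of 0.48 in founder TM over all 428 and 0.18 in F1, and some lie below 0 in F1; lower members (blue, 448) had medians of -0.38 over all 459 and -0.24.

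Some members lay on the opposite side in the cross, no more often than genes in general were called. In both F1 control and F1 TM, 17 higher members were called lower (4.05%, against 6.83% of all 12106 genes tested in both) and 15 lower members were called higher (3.35%, against 4.24%). Of these, 12 and 13 had been called in the members' direction in founder TM, with no share over all genes taken. Hoxd11 and Hoxd10, neighbouring homeobox genes that pattern the limb and the posterior body, belong to the first set. Hoxd11 was at 7.45 and 6.47 in the WSB controls against 0.71 to 4.76, and at 6.33, 7.77 and 5.79 against 0.284 to 4.5 in TM (2.19 ± 0.22, limma adjusted p = 5e-07). The xWSB controls were at 0.83, 0.482 and 0.251, all under the 2.06 to 5.13 of the other crosses (-2.43 ± 0.25, limma adjusted p = 6.7e-06). Hoxd10 showed the same order, at 6.95 and 6.32 against 0.976 to 5.93 in the controls and at 0.933, 0.688 and 0.878 against 2.89 to 4.27 in the xWSB controls (-1.89 ± 0.14, limma adjusted p = 4.8e-07). Of 39 Hox and Tbx genes 2 were higher members (5.13%, against 3.4% over all genes) and 1, Hoxa2, was lower (2.56%, against 3.65%), shares near the background. In the xWSB controls 13 were called higher (33.3%, background 5.44%) and 16 lower (41%, background 8.57%).

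Slc5a7, the choline transporter of cholinergic neurons, was at 41.5 and 52.7 in the WSB controls against 0.718 to 9.60. The xWSB controls were at 3.73, 2.96 and 6.02 against 4.17 to 21.5 (-1.28 ± 0.21, limma adjusted p = 0.00044). Lypd6, a modulator of nicotinic receptors and Wnt signalling, was at 5.09 and 6.62 against 0.252 to 1.89 in the founder controls, and at 0.415, 0.688 and 0.376 against 0.585 to 3.49 in the crosses (-1.11 ± 0.28, limma adjusted p = 0.0097), a call that edgeR did not make and that was lost without any 1 of the xWSB controls (-0.97 to -1.33). Plac8, a small cysteine-rich protein, was at 1.86 and 0.294 in the WSB controls against 3.94 to 295. In the xWSB controls it was at 125, 72.0 and 70.0, above the 11.4 to 64.1 of the other crosses (1.98 ± 0.16, limma adjusted p = 6.8e-07). Lif, a cytokine of the interleukin 6 family, was at 31.1 and 29.9 against 54.2 to 128, stayed lowest under TM at 180, 177 and 175 against 213 to 780, and was called higher in the xWSB controls (0.82 ± 0.07, limma adjusted p = 1.9e-06). In the xWSB TM libraries Lif overlapped the other crosses, at 263, 304 and 244 against 88.6 to 777, and was not called (0.42 ± 0.09, limma adjusted p = 0.0033).

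Cell cycle genes were called lower in xWSB, while few of them passed the test in WSB. These genes license and copy DNA or run mitosis, and their transcript levels follow the share of dividing cells. Of 30 genes listed, 7 were lower members (23.3%, against 3.65% over all genes) and none were higher: Mcm2, Mcm3, Mcm5 and Mcm7, subunits of the replicative helicase, Tyms, which makes thymidylate, and the mitotic genes Ccnb2 and Aurkb. Mcm3 was at 43.2 and 47.4 in the WSB controls against 57.2 to 111, and Mcm5 at 52.0 and 55.0 against 64.9 to 117. The median difference of the 30 genes was -0.39 in the controls, where all 30 were below 0, against -0.002 over all autosomal genes. In that contrast, which the rule used, 4 were called lower (13.3%, background 3.87%). The 30 genes summed to 1816 in WSB control replicate 2 and to 2205 in replicate 3, the latter within the 2064 to 3663 of the other controls. In TM the median was -0.22 and 1 gene, Mki67, was called lower (3.33%, background 6.21%). In the xWSB controls 29 of the 30 were called lower (96.7%, background 8.57%), all but Tyms, with a median of -1.66, and under TM 29 were again called lower (background 9.59%) with a median of -1.65. Mcm5 stood at 15.7, 13.1 and 12.04 in the xWSB controls against 36.4 to 70.3 (-1.91 ± 0.08, limma adjusted p = 4.1e-09). In bulk samples fewer cells of a kind and less RNA per cell cannot be told apart.

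**Figure D5:**
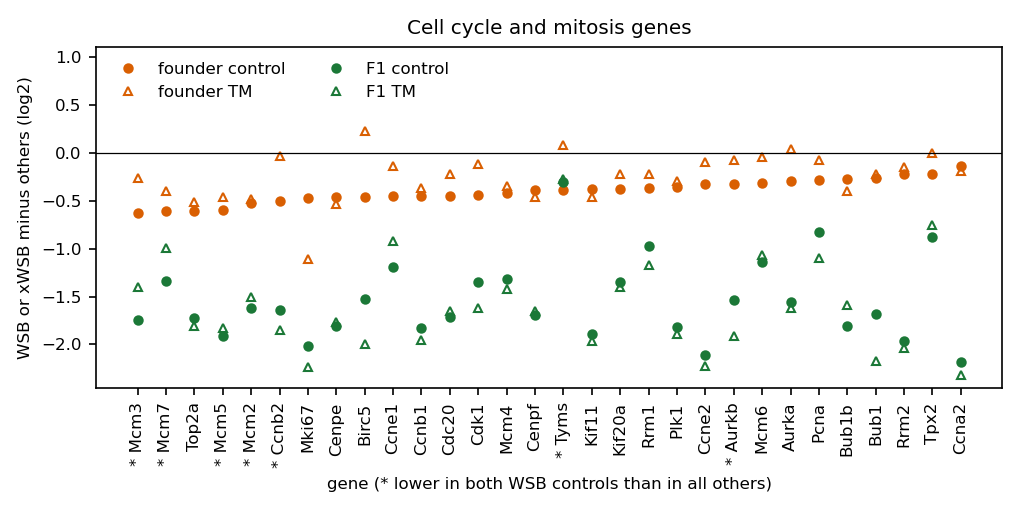
Difference of WSB (orange) or xWSB (green) from the other strains or crosses (vertical axis, log2) for 30 cell cycle and mitosis genes, with control cells as filled circles and TM as open triangles; an asterisk marks the 7 members. All 30 WSB control differences lie between 0 and -1, with a median of -0.39, and the xWSB medians are -1.66 and -1.65.

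The sequences before the starts of 3 of the helicase members are shown because these members were lower together. Capitals mark CCAAT and E2F matches on either strand. Each run holds 250 bases before the RefSeq start (GRCm38.p6), from chr6:88898781-88899030 (Mcm2, minus strand), chr1:20820313-20820562 (Mcm3, minus strand) and chr8:75109259-75109508 (Mcm5, plus strand).
Mcm2: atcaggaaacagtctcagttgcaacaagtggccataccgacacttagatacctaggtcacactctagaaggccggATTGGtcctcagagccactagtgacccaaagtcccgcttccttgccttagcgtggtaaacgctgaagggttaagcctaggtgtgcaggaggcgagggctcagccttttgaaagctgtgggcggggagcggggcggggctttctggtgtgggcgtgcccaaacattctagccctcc
Mcm3: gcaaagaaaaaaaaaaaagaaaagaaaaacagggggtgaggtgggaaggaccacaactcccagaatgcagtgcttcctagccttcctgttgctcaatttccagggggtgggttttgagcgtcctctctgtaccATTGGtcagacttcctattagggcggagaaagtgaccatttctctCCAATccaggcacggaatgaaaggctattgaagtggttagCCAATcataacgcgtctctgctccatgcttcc
Mcm5: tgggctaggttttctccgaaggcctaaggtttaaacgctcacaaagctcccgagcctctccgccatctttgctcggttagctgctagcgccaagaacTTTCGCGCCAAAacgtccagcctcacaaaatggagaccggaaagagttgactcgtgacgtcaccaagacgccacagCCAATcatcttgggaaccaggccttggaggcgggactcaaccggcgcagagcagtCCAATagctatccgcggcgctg

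In Mcm5 the E2F letters overlap on both strands. Across promoters of 250 bases, CCAAT was found before 40.8% of 368 lower members, 36.3% of 328 higher members and 36.2% of all 9829 autosomal genes with an entry. The E2F letters were found before 2.72%, 1.52% and 1.19%, AP-1 before 5.43%, 3.35% and 4.41%, and the TATA box before 7.07%, 7.62% and 6.41%. These are counts of letters and carry no test.

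Matrix genes were members in both directions. Of 29 matrix glycoprotein and proteoglycan genes, 4 were higher members (13.8%, against 3.4% over all genes) and none lower (background 3.65%): the laminin chains Lama2 and Lamc1, the basement membrane linker Nid1, and Thbs1, a matricellular glycoprotein. Lama2 was at 160 and 177 in the WSB controls against 29.1 to 108. In the cross it lay on the other side, at 13.9, 16.4 and 21.95 against 19 to 43.8 (-0.77 ± 0.16, limma adjusted p = 0.0027), a call lost without xWSB control replicate 1 (-0.62) or 2 (-0.74). Nid1 was at 1187 and 1228 against 370 to 1085 and was called higher in the xWSB controls, at 956, 2042 and 2152 against 544 to 934 (1.08 ± 0.21, limma adjusted p = 0.0018); the call was lost without replicate 2 (0.91) or 3 (0.87). In founder TM, Nid1 was at 439, 508 and 349 against 207 to 823 and did not pass the test (-0.32 ± 0.26, limma adjusted p = 0.39). Lamc1 and Thbs1 did not pass in founder TM either, at -0.16 ± 0.24 and 0.08 ± 0.20 (limma adjusted p = 0.64 and 0.79). Of 21 matrix proteases and inhibitors, Adamts5 and Adamts12, which cut proteoglycans and other matrix proteins, were higher members (9.52%, against 3.4%). Adamts5 was at 97.5 and 93.2 against 28.3 to 65.0, and at 89.5, 137 and 146 against 14.5 to 55.0 in the xWSB controls (1.89 ± 0.15, limma adjusted p = 7.1e-07). Adamts12 was at 143 and 157 against 13.6 to 81.6 but differed by 0.11 ± 0.31 in the xWSB controls (limma adjusted p = 0.84).

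Of 20 collagen genes, 1 was a higher member (5%, against 3.4%), Col6a3, and 3 were lower (15%, against 3.65%): Col8a2, Col14a1 and Col18a1. Col18a1, the basement membrane collagen that releases endostatin, was at 36.6 and 27.8 against 39.0 to 350, and at 9.23, 7.43 and 8.66 against 25.1 to 65.8 in the xWSB controls (-2.27 ± 0.08, limma adjusted p = 1.8e-09). Col14a1, which binds collagen fibrils, was at 3.72 and 3.38 against 4.56 to 41.7 and differed by -2.64 ± 0.29 in the xWSB controls (limma adjusted p = 1.4e-05). Col6a3 was at 1276 and 1358 against 306 to 1241 in the controls, did not pass the test in TM (0.17 ± 0.26, limma adjusted p = 0.67), and was called lower in the xWSB controls (-0.62 ± 0.13, limma adjusted p = 0.0028), a call lost without xWSB control replicate 1.

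Metabolic and stress lists held members at shares near the 7.06% over all genes, from 3.85% of cholesterol and fatty acid genes and 6.25% of respiratory chain genes to 10.7% of glutathione and NRF2 genes. Of 28 glutathione and NRF2 genes, Gstt2 was higher and Gsr and Prdx6 were lower. Gsr, glutathione reductase, was at 21.8 and 23.7 against 24.1 to 43.5 and was called lower in the xWSB controls, at 11.4, 10.7 and 11.5 against 21.7 to 30.5 (-1.12 ± 0.07, limma adjusted p = 1.5e-07). Of 15 glycolysis genes Pfkp, a phosphofructokinase, was the 1 member, at 130 and 144 against 66.7 to 118, and was called higher in TM (0.97 ± 0.10, limma adjusted p = 6.7e-07). Sesn2, a stress-induced inhibitor of mTORC1, was the 1 member among 17 p53 targets, at 111 and 110 against 62.0 to 102. Fdft1, squalene synthase, was the 1 lower member of 26 cholesterol and fatty acid genes. Of 32 respiratory chain genes, Ndufb5 and Ndufs4 were lower members. Mest, a paternally expressed imprinted gene, was at 3.23 and 2.21 against 3.28 to 17.6, and at 0.415, 0.344 and 0.376 against 3.18 to 18.3 in the xWSB controls (-4.11 ± 0.14, limma adjusted p = 9.1e-10). In xWSB the WSB parent was the father.

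No member was found among 34 ER chaperone and unfolded protein response genes, 25 interferon-stimulated genes, 15 MHC class I and antigen presentation genes or 12 complement genes. Over all genes 7.06% were members, so 0 in lists this short is not read as a result. At 4.35% higher and 4.35% lower (against 3.4% and 3.65% over all genes), the 23 chemokine and cytokine genes held 1 member each way, Csf1 and Lif. Csf1, the growth factor of macrophages, was at 3135 and 3372 in the WSB controls against 1747 to 2808, and at 3180, 3404 and 3104 against 1524 to 2886 in the xWSB controls (0.67 ± 0.07, limma adjusted p = 1.4e-05). Of the cell type marker lists, 1 of 7 neural genes (Nes, at 186 and 179 against 247 to 1932) and 1 of 7 muscle genes (Myh3) were lower members. Each is 14.3% of its list, against 3.65% over all genes, but rests on 1 gene. Myh3, an embryonic myosin heavy chain, had no read in either WSB control and 0.0561 to 1.55 in the others, so that with a floor of 3 reads in each WSB library the mean of the others was at least 1.01-fold higher. In TM it overlapped them, at 0.302, 0.123 and 0.623 against 0 to 1.04. None of the 13 myeloid, 6 endothelial, 6 epithelial, 8 smooth muscle and 7 cartilage and bone markers was a member, in lists too short to set against the 7.06% over all genes.

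Along the chromosomes, 43 runs of 2 or 3 neighbouring listed genes were members in the same direction, 24 higher and 19 lower, holding 91 members. The next listed gene was a higher member for 6.07% of higher members, where 3.4% of all genes were, and a lower member for 4.8% of lower members, where 3.65% were; these shares carry no test. The run of lower members 2310030G06Rik, Hspb2 and Cryab, the latter 2 being small heat shock proteins, covers chr9:50739691-50756636. Cryab was at 26.4 and 29.4 in the WSB controls against 43.9 to 432, and at 26.1, 30.4 and 21.9 against 38.6 to 485 in TM (-2.81 ± 0.18, limma adjusted p = 1.5e-09). The xWSB controls differed by 0.07 ± 0.13 (limma adjusted p = 0.73). Hspb2 was at 0.372 and 0 against 0.725 to 7.62. Hspb2 and Cryab overlap in the annotation, so without strand their reads could be shared. Rpa1, a single-stranded DNA binding protein of replication, and Smyd4 start near each other on chromosome 11 and were both lower, Rpa1 at 98.9 and 107 against 127 to 197 and Smyd4 at 11.9 and 11.2 against 13.8 to 35.5. The share of listed genes that were members ranged from 4.62% on chromosome 7 to 10.4% on chromosome 14.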

How the data were processed

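RNA-seq of MEFs gave 68 libraries in 13 tables. The authors aligned reads to strain-specific versions of GRCm38 (mm10) with TopHat 1.4.1, removed outlying libraries and normalized the rest with edgeR's TMM method. The deposited values are called FPKM, but the unit proved to be a signal of reads per scaled library size, since every value was a whole multiple of 1 step per library within 0.02. Reads were so recovered for each library, and those of 66 were used in count tests. The 2 left out, PWK TM replicate 2 and WSB TM replicate 1, had steps close to 0.1 (0.1008 and 0.1005). Founder and F1 sets were normalized separately and not compared directly.

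Members and lists were chosen with earlier results of these data known. Genes that reached 0.5 in no fewer than 2 libraries were tested with limma 3.58.1 (R 4.3.3) on log2(value + 0.1), with a trended prior and Benjamini-Hochberg adjustment over all genes, WSB or xWSB against the mean of the other strain or cross means. Calls needed an adjusted p under 0.01 and 1.5-fold. Fold changes on this scale understate the change of low genes. edgeR 4.0.16 on recovered reads (quasi-likelihood) was an alternative, as were other scalings, filters and pseudocounts and leaving out each library. The scripts were tested on simulated controls at the depths of the real ones. There limma called a few low genes too many, and edgeR on reads did not. Genes were named by a fixed rule: the 12 with the widest gap in each direction among those reaching a value of 2, up to 5 members of each list (4 where a list had more), the 2 nearest the border in each direction, and Cwc22. A gene that this rule also takes is not reported here. Others named (Cryab, Hspb2, Rpa1, Smyd4, Rps26, Sec31a, Mki67, Mcm2, Ccnb2, Aurkb, Orc1) were chosen after their values were seen. GENCODE M21 gave positions for all but 169 of 13197 listed genes, and promoters came from RefSeq. In the sequences shown, exon bases at the end next to the start site were left out, whereas the motif counts used all 250 bases.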

Additional observations from a re-analysis of the deposited data

Results flagged for a closer look

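For 3 genes named above, the founder and F1 libraries under TM lay on opposite sides: every WSB TM library was above all other founder TM libraries, and every xWSB TM library was below those of the other crosses. The F1 TM difference was -1.95 for Slc5a7, -3.46 for Hoxd11 and -2.59 for Hoxd10 on the log2 scale, and the difference between the founder and F1 contrasts was not tested. Prnd, which encodes a prion-like protein and was a lower member, was the 1 member of 868 tested whose xWSB difference changed with TM (TM minus control, -1.45 on the log2 scale; interaction over 28 F1 libraries, SE 0.20, limma adjusted p = 0.00067). It was chosen after this value was seen. Over all 12202 autosomal F1 genes, 6 passed that test, and 69 of the members had an unadjusted p under 0.05 (7.95%, against 7.3% of all genes).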

How the results depend on the processing

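A gap of at least 1.5-fold left 59 higher and 43 lower members. Leaving out 1 library at a time gave 435 to 1167 higher and 464 to 1181 lower members. The rule then has fewer libraries to clear, so these counts could only stay or rise. The upper values arose when a WSB control was left out. Without replicate 2 there were 1087 and 1181, and without replicate 3 there were 1167 and 1180. Over all genes, leaving out 1 library gave 200 to 540 genes called higher and 317 to 604 called lower in the controls, the lowest counts without WSB control replicate 2 (higher) and replicate 3 (lower). Members called in founder TM ranged from 131 to 167 higher and 126 to 156 lower, in the xWSB controls from 66 to 94 and 108 to 128, and in xWSB TM from 77 to 115 and 110 to 126. The split of calls over all genes in the controls was 417 higher and 486 lower with limma and 562 and 334 with edgeR on reads. In founder TM it was 535 and 780 with limma and 405 and 377 with edgeR, an alternative chosen after seeing the data. That edgeR fit left out PWK TM replicate 2 and WSB TM replicate 1, so the methods did not use the same libraries. Without WSB TM replicate 1 limma gave 384 and 549. The WSB controls were the shallowest founder controls, and the part of depth in the split in the controls was not tested. Median-of-ratios scaling gave 437 and 459 members, and a mean of at least 10, also chosen after seeing the data, gave 289 and 329. Same-numbered libraries did not deviate together throughout (correlations from -0.804 to 0.859). Some strains did in the founder controls, AJ with CAST (0.738 to 0.739) and CAST with NOD (0.748). In F1 TM xNOD did with xWSB (0.722 to 0.859), while in founder TM 129 and AJ ranged from -0.804 to 0.407. In founder TM, correlations of WSB were positive with NZO (0.494 to 0.742), PWK (0.396 to 0.523), NOD (0.17 to 0.554) and CAST (0.16 to 0.475). They took both signs with 129 (-0.222 to 0.232), AJ (-0.467 to 0.544) and B6 (-0.191 to 0.031). Whether the numbers mark a shared batch was not tested, and WSB had no control replicate 1. With the replicate block 435 and 528 genes were called in the controls and 163 and 151 members in founder TM. It gave 83 and 118 members in the xWSB controls and 93 and 124 in xWSB TM. Among values of single named genes recomputed under the alternatives, 74 lost and 7 gained a call, 38 control differences, which carry no test, moved by more than the spread between replicates, and none reversed.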
